A study of Mus musculus with 2 samples.

Results

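The mitochondrial β-oxidation spiral was followed through 10 genes of its enzymes and subunits, which were taken by name from the array annotation, and all 18 probesets that name Acadvl, Acadl, Acadm, Acads, Hadha, Hadhb, Echs1, Hadh, Acaa2 or Decr1 were used. They stand among 18193 genes that the array reads with a probeset of their own. The 4-month-old male C57BL/6J mice, an inbred strain, ate a semisynthetic diet with 20% fat by weight for 4 weeks. In the control diet (sHFf) the fat was flaxseed oil, rich in the plant n-3 fatty acid ALA. In the EPA&DHA diet (sHFf-F2) 44% of the lipids gave way to a concentrate with 6% EPA and 51% DHA, the long chain n-3 fatty acids of marine oils. Each diet was fed to 12 mice, and RNA of 10 control mice and 11 EPA&DHA mice was pooled and hybridized to 1 array per diet. Since each diet has a single array, the spread between mice is unknown and nothing here carries a test, an error between animals or a p-value.

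In each turn of the spiral a fatty acyl-CoA loses a pair of carbons as acetyl-CoA. An acyl-CoA dehydrogenase introduces a double bond, a hydratase adds water, a hydroxyacyl-CoA dehydrogenase oxidizes the product, and a thiolase cleaves it. Long chains pass the steps after the dehydrogenase on the trifunctional protein of the inner membrane, shorter chains on soluble enzymes of the matrix. In the enterocyte, which takes up dietary fat and mostly exports it in chylomicrons, the spiral burns part of that fat, and several of its genes are known targets of the fatty acid receptor PPARα.

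Markers of other cell types were read to describe the pools. The labels describe whole small intestine and the methods scraped epithelium. Of 12 enterocyte markers 10 were read, each with a signal between 21651 and 63898 in both pools, and their summed signal was 376108 in the control pool and 320792 in the EPA&DHA pool. Very bright probesets in general stood lower in the EPA&DHA pool, with log2 ratios most often near -0.31 around a mean log2 signal of 15.23. The part of this brightness trend in the sums of bright markers was not tested. Markers of pancreatic acinar cells summed to 5970 and 16542, 2.77-fold higher, and all 9 read were at least 1.5-fold higher. Goblet cell markers summed to 114690 and 91380, smooth muscle markers to 1368 and 1180, and striated muscle markers, with 1 of 7 kept, to 706.4 and 772.3. Of 5 plasma and B cell markers 3 were lower by 1.5-fold or more, Ighm, Cd79a and Cd79b with log2 ratios of -0.93, -0.71 and -0.65, while Jchain stood at 0.37, and the list summed to 13089 and 15909. Hepatocyte markers summed to 861.3 and 669.9, with Ttr and Apoh kept and Alb under 50 in both pools. Adipocyte markers summed to 195.6 and 235.8, nearly all of it Adipoq, with Ucp1 and Lep under 50. No marker was listed at 0. The ratio of 3' to 5' signal, a measure of intact RNA, was 0.932 and 0.793 for Gapdh and 1.22 and 1.16 for Actb. The part of cell makeup or RNA quality in the ratios of the spiral enzymes was not tested, and in pooled tissue RNA fewer cells of a type and less RNA per cell cannot be told apart.

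Expression of Acadl and Acaa2 was at least 1.5-fold higher on EPA&DHA when each gene was read on its brightest probeset, and the other 8 members were within 1.24-fold of equality in either direction. A dim probeset of Hadh lay far above the others of that gene. Thus 2 of 10 members were higher by 1.5-fold or more and 0 were lower by as much. Over all 11756 measured genes these shares were 6.24% and 8.02%. The brightest probesets of all 10 members lay in the brightest quartile of signals, where 2.63% of 3874 genes were higher by this fold and 1.76% lower. The median log2 ratio of EPA&DHA over control was 0.23 for the members and -0.05 for all genes, and 8 of 10 members lay above 0, compared with 43.5% of all genes and 40.7% of genes in the brightest quartile. The log2 ratios are set beside a local SD, the robust spread of the log2 ratios of the 500 probesets nearest in signal. This spread covers different genes on 1 pair of arrays and does not stand for the error between mice.

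**Figure D1:**
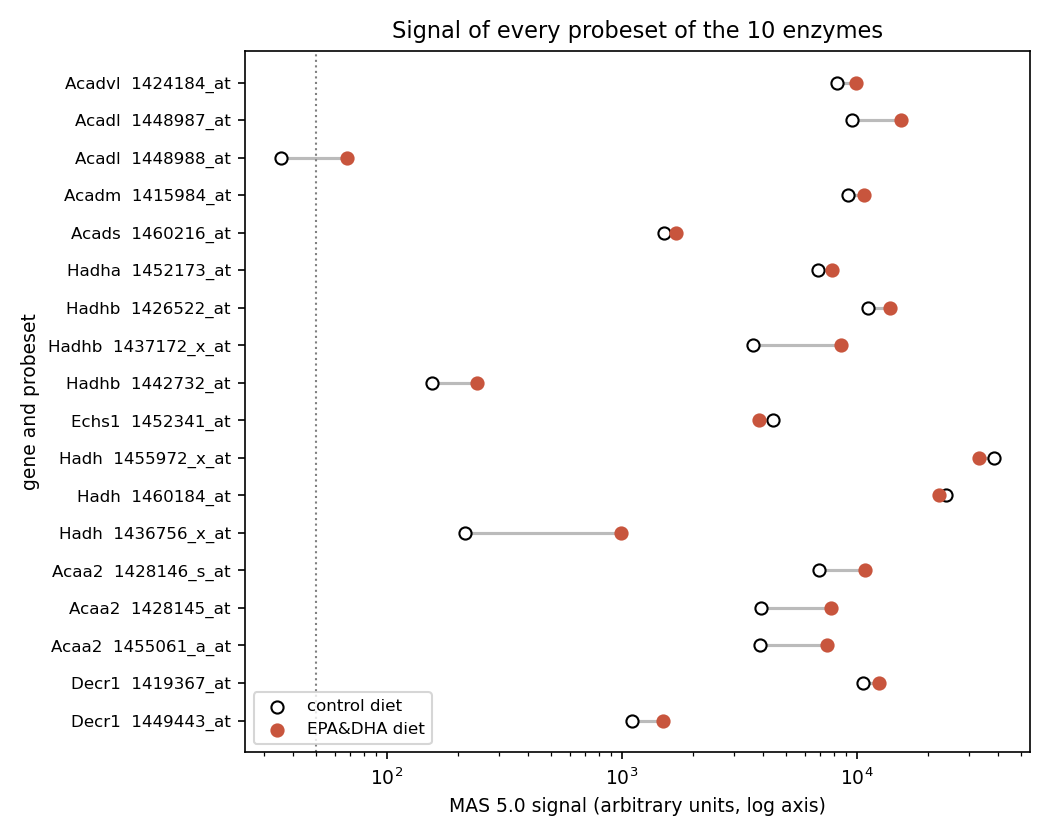
MAS 5.0 signal (x axis, log scale, arbitrary units) of each probeset of the 10 enzymes (y axis) in the control pool (open circles) and the EPA&DHA pool (red). The dotted line at 50 is the mean signal required for a probeset to be kept, and the pools stand far apart on Hadh 1436756_x_at, with signals of 215.9 and 996.6.

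The 4 acyl-CoA dehydrogenases that open each turn differ in the chain length they prefer. Acadvl, the membrane bound enzyme for very long chains, had a signal of 8209 in the control pool and 9917 in the EPA&DHA pool. It was 1.21-fold higher, and its log2 ratio, 0.27, compares with a local SD of 0.23. Acadl, which acts on long and branched chains, had signals of 9498 and 15353 on its bright probeset. This was the largest ratio among the brightest probesets of the members, 1.62-fold or 0.69 on the log2 scale, which is 2.96 local SDs. The other Acadl probeset read 35.5 and 67.4, a mean under the signal of 50 required here, so its ratio of 1.90 rests on dim values.
Acadm, the enzyme for medium chains whose loss causes a common inborn defect of fat oxidation in humans, had signals of 9135 and 10744. Its log2 ratio of 0.23 was about as large as the local SD of 0.24. Acads, specific for short chains, had signals of 1517 and 1697 and a log2 ratio of 0.16, smaller than its local SD of 0.26. All 4 dehydrogenases were thus higher in the EPA&DHA pool, with log2 ratios from 0.16 to 0.69, and 1 of them passed 1.5-fold. Neighbours such as Acadvl and Acadm differed by less than a local SD, and no order by chain length could be tested with 1 array per diet.

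The Acadl promoter, from 250 bases before to 50 after the RefSeq start site, is shown as that of the member with the largest such ratio. It lies at chr1:66863260-66863559 on the minus strand (GRCm38.p6) with 70.3% G and C. Capitals mark the GC box GGGCGG on either strand.
Acadl: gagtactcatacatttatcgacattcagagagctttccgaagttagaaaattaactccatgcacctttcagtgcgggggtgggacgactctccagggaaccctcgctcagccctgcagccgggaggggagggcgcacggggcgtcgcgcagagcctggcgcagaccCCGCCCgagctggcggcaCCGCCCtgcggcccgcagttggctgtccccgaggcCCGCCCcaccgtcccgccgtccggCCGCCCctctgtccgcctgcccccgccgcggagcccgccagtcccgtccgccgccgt
The hexamer AGGTCA, the unit of nuclear receptor binding sites, was not in this window on either strand. The GC box occurred 4 times, all on the opposite strand.

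The trifunctional protein carries Hadha, the subunit with hydratase and hydroxyacyl-CoA dehydrogenase activity, and Hadhb, the thiolase subunit. Hadha read 6811 in the control pool and 7808 in the EPA&DHA pool, a 1.15-fold difference whose log2, 0.20, is inside its local SD of 0.24. Hadhb on its brightest probeset had signals of 11141 and 13800, a log2 ratio of 0.31 against 0.23. These ratios of the partner subunits lay close together.
The other Hadhb probesets did not. On 1437172_x_at the signal was 3617 in the control pool and 8534 in the EPA&DHA pool, 2.36-fold higher and 4.91 local SDs from 0. Probesets with the suffix _x_at hold probes that can also match other sequences. On the dim 1442732_at it was 156.2 and 242.2, or 0.63 on the log2 scale with a local SD of 0.41. The log2 ratio of Hadhb therefore ran from 0.31 to 1.24 over its 3 probesets, all above 0.

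Hadha and Hadhb lie head to head on chromosome 5, and their RefSeq start sites are 273 bases apart. The windows of both genes, at chr5:30154931-30155230 on the minus strand and chr5:30155003-30155302 on the plus strand (GRCm38.p6), share 228 bases. Both windows hold the shared stretch whole, and that of Hadhb is printed, with the GC box in capitals.
Hadhb: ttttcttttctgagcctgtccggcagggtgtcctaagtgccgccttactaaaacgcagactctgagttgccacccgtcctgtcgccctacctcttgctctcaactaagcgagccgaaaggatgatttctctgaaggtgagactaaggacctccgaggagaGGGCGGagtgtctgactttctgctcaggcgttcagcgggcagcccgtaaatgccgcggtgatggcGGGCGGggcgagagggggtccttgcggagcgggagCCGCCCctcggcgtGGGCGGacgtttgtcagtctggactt
AGGTCA was absent from both windows. The GC box was found 4 times in the Hadhb window and 1 time in the Hadha window.

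The soluble enzymes of the matrix, which handle shorter chains, had ratios on both sides of 0. Echs1, the short chain enoyl-CoA hydratase, read 4404 in the control pool and 3821 in the EPA&DHA pool. This was 1.15-fold lower, and the log2 ratio of -0.20 is inside its local SD of 0.22. Hadh, the hydroxyacyl-CoA dehydrogenase for medium and short chains, read 38385 and 33101 on 1455972_x_at and 23998 and 22356 on 1460184_at.
The log2 ratios of these bright Hadh probesets were -0.21 and -0.10, and their local SDs 0.20 and 0.19. The 500 nearest probesets had medians of -0.09 and -0.09, so very bright probesets in general stood slightly lower in the EPA&DHA pool. As 1455972_x_at ranks 27 by mean signal, its local median and local SD come almost wholly from dimmer probesets. Near its own brightness, at mean log2 signals around 15.01 and 15.23, log2 ratios were most often near -0.19 and -0.31. After quantile normalization the ratio of 1455972_x_at was -0.02. The third Hadh probeset, 1436756_x_at, read 215.9 in the control pool and 996.6 in the EPA&DHA pool. It was 4.62-fold higher, 2.21 on the log2 scale where the local SD was 0.33, and opposed both bright probesets of the gene. Whether it reads the same transcript was not tested.

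Acaa2, the thiolase that ends the turn for medium chains, was read by 3 probesets that all stood higher on EPA&DHA. Their signals in the control and EPA&DHA pool were 6912 and 10885 on 1428146_s_at, whose suffix marks probes shared between transcripts. They were 3929 and 7744 on 1428145_at, and 3863 and 7459 on 1455061_a_at. The folds were 1.57, 1.97 and 1.93, and the log2 ratios of 0.66, 0.98 and 0.95 were between 2.89 and 3.87 local SDs. The 3 ratios come from the same pair of pools and are not independent repeats of the diet.

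Decr1, dienoyl-CoA reductase, is an auxiliary enzyme that removes double bonds the spiral cannot pass, such as those of polyunsaturated fatty acids like EPA and DHA. Its bright probeset had signals of 10662 and 12419, or 0.22 on the log2 scale with a local SD of 0.24. The dimmer one read 1102 and 1496, a log2 ratio of 0.44 against 0.25. Both were higher on EPA&DHA and neither passed 1.5-fold.

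**Figure D2:**
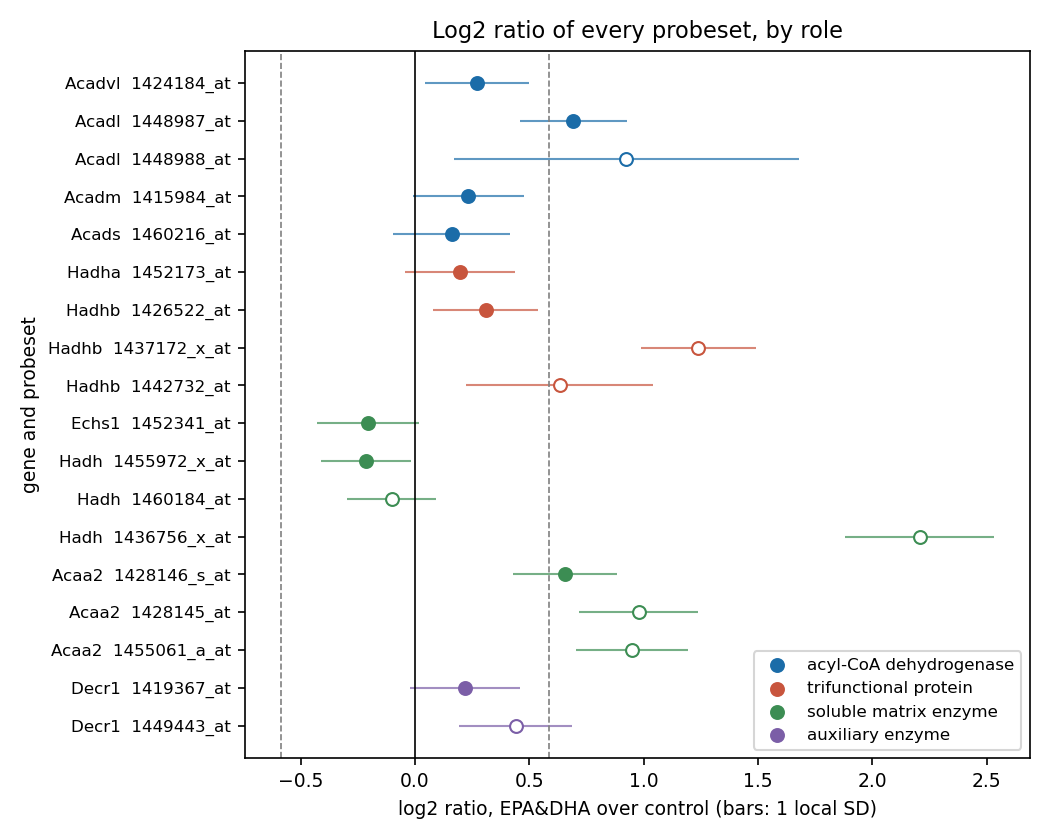
Log2 ratio of EPA&DHA over control (x axis) for each of the 18 probesets, coloured by role in the spiral, with bars of 1 local SD. Filled circles are the brightest probeset of each gene and open circles the others, and dashed lines mark 1.5-fold. Acaa2 lies right of the dashed line on 3 probesets, while Hadh spans -0.21 to 2.21.

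Counted over probesets instead of genes, 7 of 17 kept member probesets were higher by 1.5-fold or more and 0 were lower by as much. Over all 24461 kept probesets these shares were 8.11% and 9.01%. Of the 17, 15 lay in the brightest quartile, where by suffix 2.99% to 10.6% of probesets were higher and 1.27% to 2.1% lower. Past 2-fold were 2 of the 17 members' probesets, against 2.31% of all, and above 0 were 14, against 45.6%. These 7 belong to 4 genes, with 3 from Acaa2, 2 from Hadhb and 1 each from Acadl and Hadh. Of the 7 probesets that were not the brightest of their gene, 5 were at least 1.5-fold higher, with a median log2 ratio of 0.95, compared with 2 of the 10 brightest. The choice of probeset therefore moved Hadhb, Hadh and Acaa2 by more than their local SD. Averaged over probesets the log2 ratios of Hadhb and Hadh were 0.73 and 0.63, and 4 of 10 members passed 1.5-fold.

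**Figure D3:**
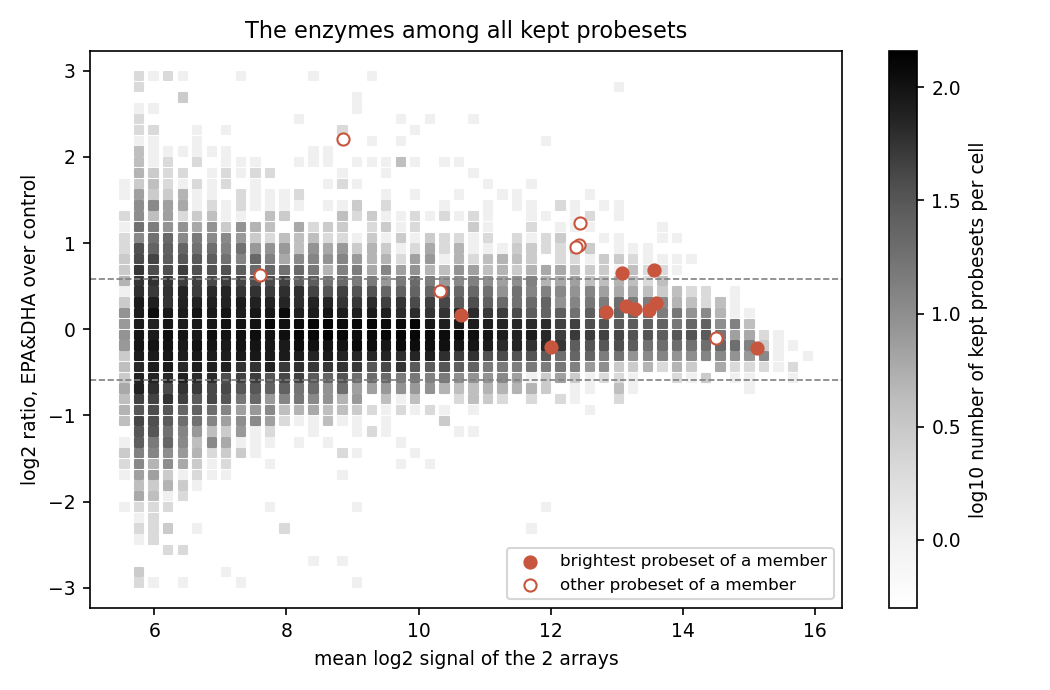
Log2 ratio of EPA&DHA over control (y axis) against the mean log2 signal of both arrays (x axis). Grey cells give the number of kept probesets on a log10 scale, with ratios beyond the axis set to its ends, and circles are probesets of the 10 enzymes, filled for the brightest of each gene. The filled circles sit among the bright signals, and 2 of the 10 lie above the upper dashed line at 1.5-fold.

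The promoters of 8 members were matched in the RefSeq table, and Acaa2 and Decr1 were not matched. AGGTCA was found in those of Acadvl, Acadm and Echs1, 3 of 8, and in 16.3% of all 32851 promoters. The DR1 element that PPARα binds consists of 2 such hexamers in the same direction with 1 base between. With at most 2 mismatches in its 12 hexamer bases it occurred in the Echs1 window only, and in 3.86% of all promoters. No member held it with fewer mismatches, compared with 0.554% of all promoters with at most 1. The GC box was in 6 of 8 members and 35.7% of all promoters, where the box of Hadha is 1 of those of Hadhb, a single site in their shared bases that counts for both. TCAAGGTCA and TATAAA were in 0 of 8, against 0.423% and 13.6%, and CCAAT in Hadh alone, against 37.4%. TCAAGGTCA contains AGGTCA, and both strands were searched for each. The Echs1 window is printed as the one with the DR1 match. It lies at chr7:140116372-140116671 on the minus strand (GRCm38.p6), with the DR1 match, at bases -83 to -71 from the start site, and the GC boxes in capitals.
Echs1: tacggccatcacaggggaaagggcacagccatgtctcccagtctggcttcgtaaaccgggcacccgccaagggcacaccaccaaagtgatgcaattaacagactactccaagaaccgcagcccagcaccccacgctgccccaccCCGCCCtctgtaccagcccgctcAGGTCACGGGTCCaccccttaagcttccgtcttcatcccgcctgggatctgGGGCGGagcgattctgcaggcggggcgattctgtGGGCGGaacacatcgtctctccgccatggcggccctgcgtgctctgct
Echs1 had a log2 ratio of -0.20, and with a match in 1 of 8 members no relation between match and ratio could be tested. A match is a description of letters in this window and says nothing about binding.

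Genes that feed the spiral or take its products were read from further lists. Their counts compare with 6.24% of all measured genes higher by 1.5-fold or more and 8.02% lower. Carnitine entry, which brings long chains into mitochondria, had 1 of 4 measured genes higher by 1.5-fold or more and 0 lower. This was Slc25a20, the carnitine carrier of the inner membrane, with signals of 7186 and 11585, and the median log2 ratio of the list was 0.48. Cpt1a, the rate-limiting entry enzyme, had signals of 4293 and 5643 on its brightest probeset, a log2 ratio of 0.39, while the dimmer _x_at probesets stood at 1.98 and 2.07. With the mean or the median over probesets it passed 1.5-fold too, which made 2 of 4. The isomerases that shift double bonds had 1 of 3 at least 1.5-fold higher, Eci2, with signals of 3093 and 6436, while Eci1 stood at a log2 ratio of 0.14. The flavoproteins that pass electrons from the acyl-CoA dehydrogenases to the respiratory chain had 0 of 3 past 1.5-fold. Their log2 ratios ran from 0.18 for Etfdh to 0.31 for Etfb, all above 0.
Acyl-CoA dehydrogenases other than the members had 2 of 8 at least 1.5-fold higher and 0 lower, with a median of 0.27. They were Gcdh, which degrades lysine and tryptophan, with signals of 281.9 and 665.0, and Ivd, which degrades leucine, with 248.3 and 397.2. With an offset of 50 added to each signal, or with the mean or median over probesets, Ivd did not pass and the count was 1. Other hydratases, dehydrogenases and thiolases of mitochondria had 2 of 8 higher, Echdc2 and the dim Echdc3, with log2 ratios of 0.61 and 0.98 and a list median of 0.10. With the same offset neither of those passed 1.5-fold, and with a mean signal of 100 or more required the count was 1. The enzymes that handle the odd-chain end as propionyl-CoA had 0 of 4 past 1.5-fold, from -0.07 for Pccb to 0.48 for Pcca.

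Lists of other mitochondrial and peroxisomal functions give the setting. In the peroxisomal spiral, which shortens very long chains, 4 of 10 measured genes passed 1.5-fold upward and 0 downward, with a median log2 ratio of 0.52. They were Acox2, Acaa1b, Hsd17b4 and Decr2, with log2 ratios of 1.30, 1.10, 0.70 and 0.62. Of the 10 genes, 7 lay above 0. Acaa1a stood at -0.26 on its brightest probeset and 0.90 on a dimmer one. Scp2, at -0.26 on its brightest, ran from -0.29 to 0.72 over its probesets. Ehhadh was 1.499-fold higher, and after centring on the median log2 ratio or a loess correction the count upward was 5. The citrate cycle, which oxidizes the acetyl-CoA made by the spiral, had 0 of 16 past 1.5-fold, a range from -0.22 for Sdhb to 0.32 for Suclg2, and a median of -0.02. Among 81 measured subunits or assembly factors of respiratory complexes and ATP synthase, 2 passed 1.5-fold upward and 0 downward, and 28 lay above 0. The higher ones were Ndufaf2, an assembly factor of complex I, and Cox6b2, with log2 ratios of 0.87 and 0.64, and the median was -0.06. With an offset of 50 Cox6b2 did not pass and the count was 1. The count downward was 1 without _x_at and _s_at probesets and 3 with no filter on low signal. Over all measured genes 6.24% passed 1.5-fold upward, 8.02% downward and 43.5% lay above 0. In the brightest quartile these shares were 2.63%, 1.76% and 40.7%. Many subunits were very bright, such as Uqcrb with signals of 48166 and 41183. The part of the brightness trend in the median of -0.06 was not tested. The difference between the medians of these lists and that of the spiral enzymes could not be tested with 1 array per diet.

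**Figure D4:**
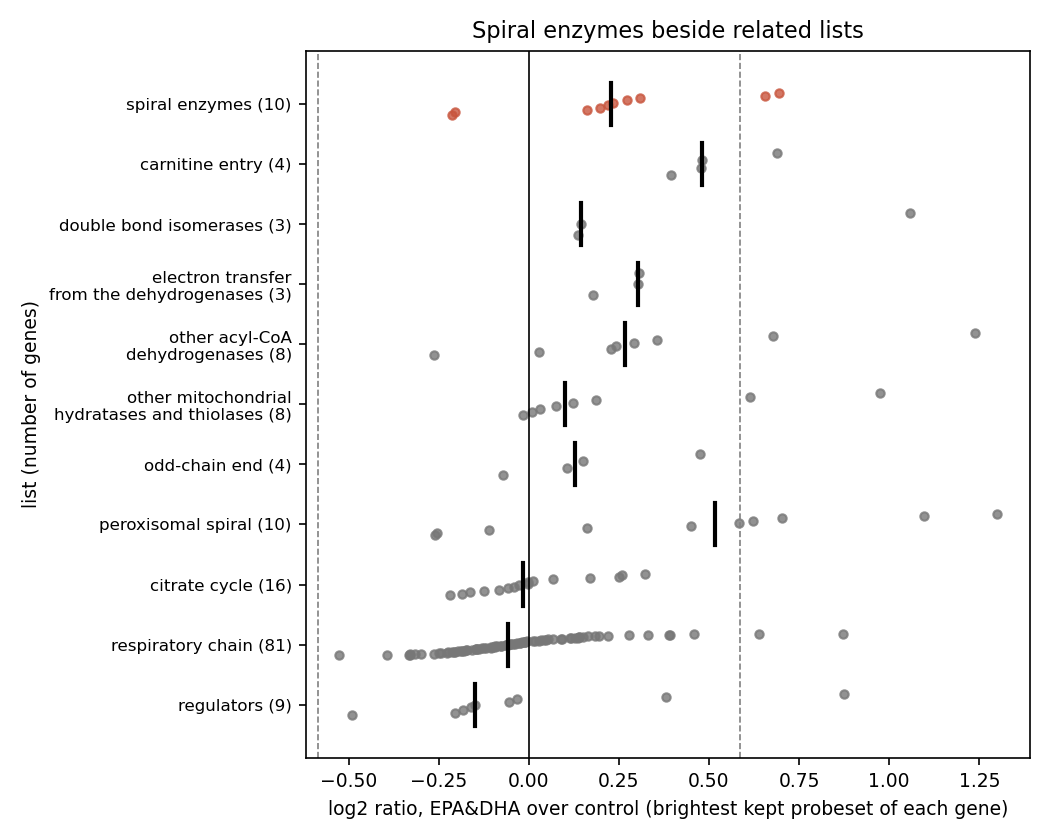
Log2 ratio of EPA&DHA over control (x axis) of each gene on its brightest kept probeset (circles) for the 10 spiral enzymes (red) and 10 related lists (grey), with the number of genes in brackets. Black bars are medians and dashed lines 1.5-fold. The median is 0.23 for the spiral enzymes, 0.52 for the peroxisomal spiral and -0.06 for the respiratory chain.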

How the data were processed

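For each diet the authors hybridized 1 RNA pool to the Affymetrix array MOE430_2, and MAS 5.0 gave a value per probeset (version: not given in the sources used here). Values as deposited are linear signals, whose 2% trimmed mean was 500.0 on both arrays. Signals were brought to the same 2% trimmed mean, and 64 of 45101 probesets were set aside as controls. Genes came from the platform annotation, with symbols updated through gene identifiers to RefSeq: 34945 probesets named 1 gene, 932 several and 9160 none. The 24461 probesets with a geometric mean signal of 50 or more were kept (54.3%), and a gene took the log2 ratio of its brightest kept probeset that names it alone. With 1 array per diet no test was made, and the number of arrays limits the precision. Calls were made at 1.5-fold. The local SD is a robust SD (the scaled MAD) taken over the ratios of the 500 kept probesets closest in mean signal. Signals of different probesets are not comparable as transcript levels. Of the related lists, genes past 1.5-fold were named, or else the highest and lowest. The members and lists were chosen with earlier results of these data known. Promoters came from a RefSeq table. Alternatives covered scaling, an offset, the filter and the probeset of a gene. Functions were tested on simulated data. Python 3.11.15, numpy 2.4.6, pandas 2.3.3, scipy 1.17.1, statsmodels 0.14.6 and matplotlib 3.10.9 were used.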

Additional observations from a re-analysis of the deposited data

How the results depend on the processing

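Under 11 other settings and 1 more chosen after seeing the data (no _x_at or _s_at probesets together with a loess correction), the count of members at least 1.5-fold lower was 0, and the count at least 1.5-fold higher was 2 except for 4 with the mean and 3 with the median over the probesets of a gene. The median log2 ratio of the members ranged from 0.18 with quantile normalization to 0.30 with the mean over probesets. Of 120 ratios of single members, 6 moved by a local SD or more. These were the ratios of Hadhb, Hadh and Acaa2 under another choice of probeset, such as -0.21 for Hadh on its brightest probeset and 0.63 on average. Without _x_at and _s_at probesets Hadh stood at -0.10 and Acaa2 at 0.98. Across the scalings Acadl stayed between 0.68 and 0.73 and Echs1 between -0.21 and -0.17. Over all probesets, 1983 were at least 1.5-fold higher and 2203 lower. With an offset of 50 these were 1089 and 1027, with no filter on low signal 8430 and 10408, and with a mean signal of 100 or more 1179 and 1015. Each of these settings shrinks dim ratios, adds dim probesets or removes them. Among the scalings, the share of higher ones among the probesets past 1.5-fold ran from 47.4% to 54.9%. No paired analysis was possible because each diet has 1 pooled array. Depth is not defined for arrays, and the dim Acadl probeset and Echdc3 lie near the signal of 50 where the spread between probesets is large.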

Other observations

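Among genes that control oxidative metabolism, Ppara, which encodes PPARα, was 1.83-fold higher on EPA&DHA, the 1 regulator of 9 measured that passed 1.5-fold, and 0 passed it downward. Over all measured genes 6.24% passed this fold upward and 8.02% downward. The related receptors Ppard and Pparg had log2 ratios of -0.49 and -0.18, and their partner Rxra -0.06. Esrra, a receptor that drives mitochondrial genes, stood at -0.16. Its coactivator Ppargc1a read 1914 in the control pool and 1725 in the EPA&DHA pool on the brightest of 5 kept probesets, and its log2 ratios over them ran from -0.55 to 0.24. Tfam, which maintains mitochondrial DNA, stood at 0.38 on its brightest probeset and -0.26 on a dim one.

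The suffix of a probeset went with its ratio beyond the members. Of 1596 kept probesets with the suffix _x_at, 14.6% were higher by 1.5-fold or more and 8.33% lower, compared with 7.88% and 9.71% of 17919 probesets without a suffix letter. In the brightest quartile it was 10.6% and 1.9% against 2.99% and 1.84%. In 894 genes with both kinds, the log2 ratio of the brightest _x_at probeset was set against that of the brightest probeset without _x_at or _s_at. The _x_at ratio was higher by 1 or more in 5.82% and lower by as much in 2.91%. Between the brightest and the next probeset without these suffixes the shares were 3.17% above and 3.4% below in 4380 genes. The probesets Hadhb 1437172_x_at and Hadh 1436756_x_at, with log2 ratios of 1.24 and 2.21, belong to the _x_at kind, and so do Hadh 1455972_x_at at -0.21 and the Cpt1a probesets at 1.98 and 2.07. The cause was not tested.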
